A study of Rattus norvegicus with 4 samples.

Results

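The miR-29 family of the rat heart was followed after myocardial infarction (MI) through its 3 guide strands, rno-miR-29a, rno-miR-29b and rno-miR-29c, the strands that are loaded into the silencing complex. They were found as the array probes that carry these rat names, 3 of 348 rat probes on the arrays of day 2 and 3 of 677 on those of day 14. The study hybridized heart RNA of male Wistar rats to 4 arrays, with 1 array for each group and RNA pooled from 3 rats on each. In the MI groups of day 2 and day 14 the chest and pericardium were opened and the LAD coronary artery was tied off, per the labels. In the sham groups of day 2 and day 14 the chest and pericardium were opened without the ligation, per the labels. Groups came from the sample titles, since all 4 samples carry the same treatment text, that of sham at day 2. The labels give no age for the rats. All rats, sham included, thus had chest surgery. With 1 array per group there is no replicate check and no test: every difference below compares 2 arrays, and the standard errors (SE) describe only the 4 spots of a probe on each array. Slide and group cannot be told apart, since every array lay on a separate slide. The labelled amount of RNA was 1 µg for the arrays of day 2 but 500 ng for those of day 14, per the labels, and the array generation changed as well, so levels are compared within a day only.

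MicroRNAs pair with the 3′ ends of messenger RNAs, mainly through bases 2 to 8 of the guide strand, called the seed, and lower the output of the messenger. The miR-29 family is known for targeting messengers of the extracellular matrix, among them type I and type III collagen, fibrillin and elastin. In mouse hearts miR-29 is known to be expressed more strongly in fibroblasts than in muscle cells, and its loss near an infarct has been linked to collagen deposition. The rat makes the guide strands from 4 hairpins in 2 clusters.

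The guide strands are printed because all members share the seed, shown in capitals, and differ only further along. The sequences are those of RefSeq for the rat build GRCr8, written 5′ to 3′.
rno-miR-29a: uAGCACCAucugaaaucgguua
rno-miR-29b: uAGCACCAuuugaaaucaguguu
rno-miR-29c: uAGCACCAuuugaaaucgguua

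The seed AGCACCA pairs with the letters UGGUGCU in a messenger, and it occurred in 3 of 693 rat mature names of the RefSeq table, which were the 3 members. Counted from 1 at the 5′ end, miR-29c differed from miR-29a by the single change C10U, leaving 21 of 22 positions identical. miR-29b differed from miR-29a by C10U, G18A, U21G and A22U, with 18 of 22 positions identical, and it was 23 bases long instead of 22. Against miR-29c, miR-29b carried G18A, U21G and A22U, with 19 of 22 positions identical. In human cells the 3′ end of miR-29b, where these changes lie, is known to direct it to the nucleus. Whether the probes of such close sequences also bind each other's targets was not tested.

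miR-29a lies on the reverse strand at chr4:60617968-60617989, and miR-29b at chr4:60618342-60618364 on the same strand, where 291 bases separate the hairpins Mir29a and Mir29b1. miR-29c lies on the forward strand at chr13:109099412-109099433, and 447 bases separate its hairpin from Mir29b2, a second source of the same miR-29b. One miR-29b probe therefore reads the product of both clusters. The hairpin of miR-29a is printed because its arms behaved differently on the arrays. Its 88 bases lie at chr4:60617955-60618042 on the reverse strand, and the capitals mark the other arm, miR-29a*, followed by the guide miR-29a.
Mir29a: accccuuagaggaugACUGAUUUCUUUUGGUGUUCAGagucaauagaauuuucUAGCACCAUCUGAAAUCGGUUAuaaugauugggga

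Of the rat probes, 199 were detected on the MI array and 166 on the sham array at day 2, and 214 on the MI array and 173 on the sham array at day 14. A probe counted as detected when at least 50% of its 4 spots exceeded the local background by more than 2 background SDs, and as saturated when at least 50% of its spots stood at the scanner limit of 65535. The median SD between spots of a rat probe was 0.154 on the MI array and 0.637 on the sham array of day 2 (log2), and 0.0833 on the MI array and 0.126 on the sham array of day 14. On the sham array of day 2 the spots of set 4, the last of the 4 copies of each probe, lay 0.87 below their probes' medians (median deviation, log2), with a median background of 526.5 against 279 to 349 in its other sets. In the header of that scan the image carries a mouse prefix, while the labels name rat. Heart muscle miRNAs were detected on all arrays, 5 of 5 listed. All members were detected on every array.

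At day 2, miR-29a was too bright to compare. Its 4 spots read 65535, 65535, 65535 and 65379 on the MI array, against 65535 in each of the 4 spots on the sham array. The pixels at the limit made up 74, 77, 79 and 49% of these spots on the MI array, against 89, 84, 85 and 81% on the sham array. Both arrays were at the limit, so no fold is given for miR-29a at day 2. The share of saturated pixels was lower in every spot of the MI array, and the background under the spots was lower there too, at 125 to 162 against 292 to 331. The pixel shares carry no normalization between arrays and are given as a description.

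**Figure D1:**
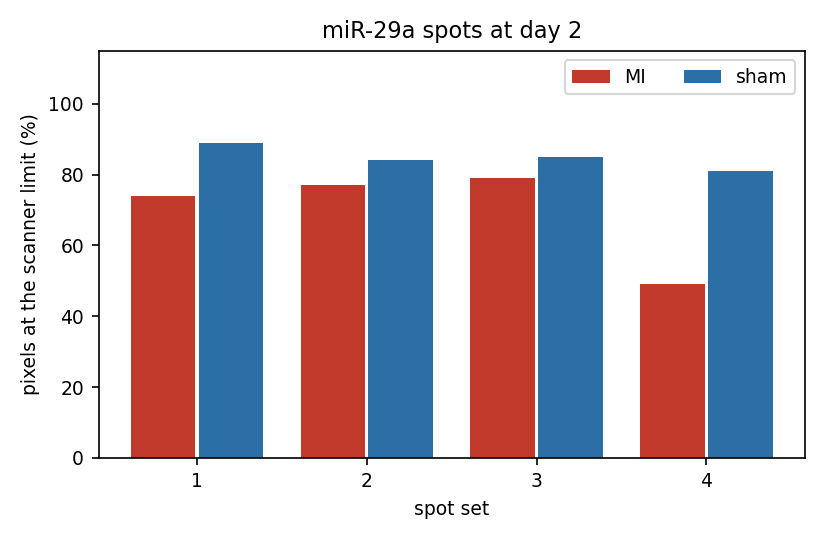
Spot readings of miR-29a at day 2, with the percent of pixels at the scanner limit for each of the 4 spot sets, the MI bar left of the sham bar. Every MI spot lies below every sham spot, at 49 to 79% against 81 to 89%, while 3 of 4 MI readings and 4 of 4 sham readings stand at 65535.

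miR-29b, with 0% of pixels at the limit at day 2, gave normalized log2 intensities of 13.21, 13.38, 12.92 and 12.93 in the 4 spots of the MI array. The spots of the sham array gave 13.30, 13.11, 12.47 and 11.65. Spots of the arrays overlapped, and the lowest value was set 4 of the sham array. The mean was 13.11 in MI and 12.63 in sham, a difference of 0.48 (SE 0.39, 4 spots each), or 1.39-fold. Taken spot set by spot set, the difference was -0.08, 0.27, 0.45 and 1.28, higher in MI in 3 of 4 sets, and it was 0.21 without set 4.

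miR-29c behaved in the same way at day 2. Its spots gave 12.85, 13.65, 13.44 and 13.29 on the MI array, against 13.16, 13.22, 13.45 and 11.70 on the sham array. The arrays overlapped here too, apart from the low sham spot of set 4. The difference was 0.42 (SE 0.43, 4 spots each), or 1.34-fold, with -0.31, 0.42, -0.01 and 1.59 in the 4 sets. Without set 4 it was 0.03, so the difference from 0 rested on 1 of the 4 sets. The median of the rat miRNAs measured on both arrays was -0.31 in that setting. miR-29c lay 0.34 above this median without set 4 and 0.34 above it with all sets.

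Of the 2 members with a fold at day 2, 0 passed the 2-fold line in either direction, against 5.35% of all 187 rat miRNAs with a fold, of which 4.28% were at least 2-fold higher in MI and 1.07% at least 2-fold lower. The median difference of the 147 measured on both arrays, those detected and not saturated on each, was 0.09. miR-29b stood above 119 and miR-29c above 110 of these 147. Over the processing settings, miR-29b was 0.30 to 0.60 and miR-29c 0.23 to 0.54 above the median, where the 4 settings that only shift whole arrays leave this distance the same by construction. Both differences were about the size of their SE over spots.

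At day 14 no member was saturated. miR-29a, which shares a cluster with miR-29b, gave 14.08, 13.76, 13.84 and 13.56 on the MI array, against 13.87, 13.78, 13.84 and 13.67 on the sham array (normalized log2 intensity). The spots of the arrays overlapped throughout. The mean was 13.81 in MI and 13.79 in sham, a difference of 0.02 (SE 0.12, 4 spots each). Before normalization the values were different, and the median difference of the measured rat miRNAs was then 0.46. The net intensity, foreground minus local background, was 16513 ± 1771 in MI and 11958 ± 955 in sham (SD, 4 spots each), 1.38 times as high in MI with no overlap.

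miR-29b was lower in MI at day 14, by less than 2-fold. Its spots gave 11.06, 11.20, 10.73 and 11.02 on the MI array, against 11.45, 11.55, 11.10 and 11.40 on the sham array. The spot sets ran in parallel, with differences between -0.39 and -0.35 in all 4 sets, although the ranges of the arrays overlapped at their edges. The mean difference was -0.37 (SE 0.14), or 1.30-fold lower in MI. The net intensity was 2281 ± 301 in MI and 2057 ± 188 in sham (SD, 4 spots each), 1.11 times as high in MI, so the direction of miR-29b turned on the normalization: the difference was above 0 in 2 of 19 settings and below 0 in 17.

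miR-29c differed most of the 3 at day 14. Its spots gave 9.91, 9.53, 9.91 and 9.57 on the MI array, against 10.33, 10.31, 10.55 and 10.28 on the sham array. Every MI spot was below every sham spot. The difference was -0.64 (SE 0.12, 4 spots each), or 1.56-fold lower in MI, and it lay between -0.78 and -0.42 in the 4 sets. The net intensity was lower in MI as well, at 877 ± 135 against 1065 ± 88.7 in sham (SD, 4 spots each). miR-29c was below 0 in 19 of 19 settings, from -1.19 to -0.27.

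**Figure D2:**
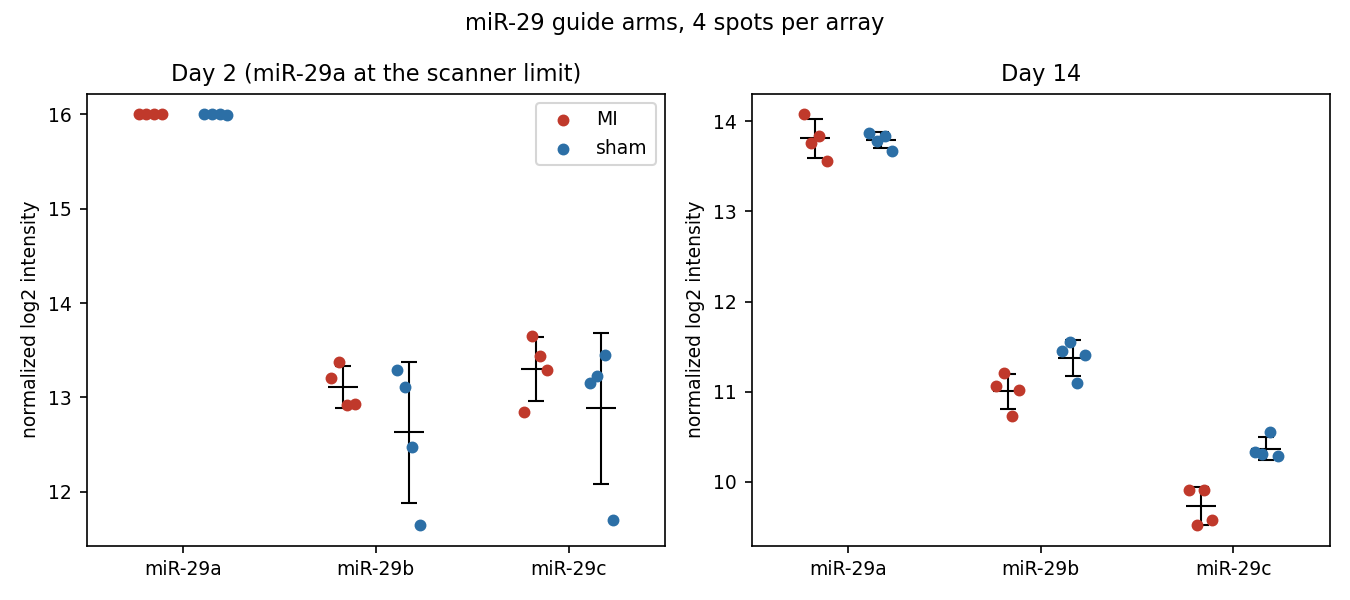
Normalized log2 intensity of each of the 4 spots of miR-29a, miR-29b and miR-29c, with MI to the left of sham at day 2 and day 14, and bars for the mean ± SD over spots. At day 2 the sham spots of miR-29b and miR-29c spread down to 11.65 and 11.70, and at day 14 the arrays separate without overlap for miR-29c only.

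At day 14, 0 of 3 members passed the 2-fold line, against 15.2% of all 230 rat miRNAs with a fold, of which 11.7% were at least 2-fold higher in MI and 3.48% at least 2-fold lower. The members' median difference was -0.37, the value of miR-29b, against 0.24 for the 157 rat miRNAs measured on both arrays. In their order, 53 of 157 differences (33.8%) lay below that of miR-29a, 27 of 157 (17.2%) below that of miR-29b and 17 of 157 (10.8%) below that of miR-29c. All members were thus below the middle of the distribution, miR-29c furthest. Relative to the median of the measured rat miRNAs, the difference was -0.22 for miR-29a, -0.61 for miR-29b and -0.88 for miR-29c.

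**Figure D3:**
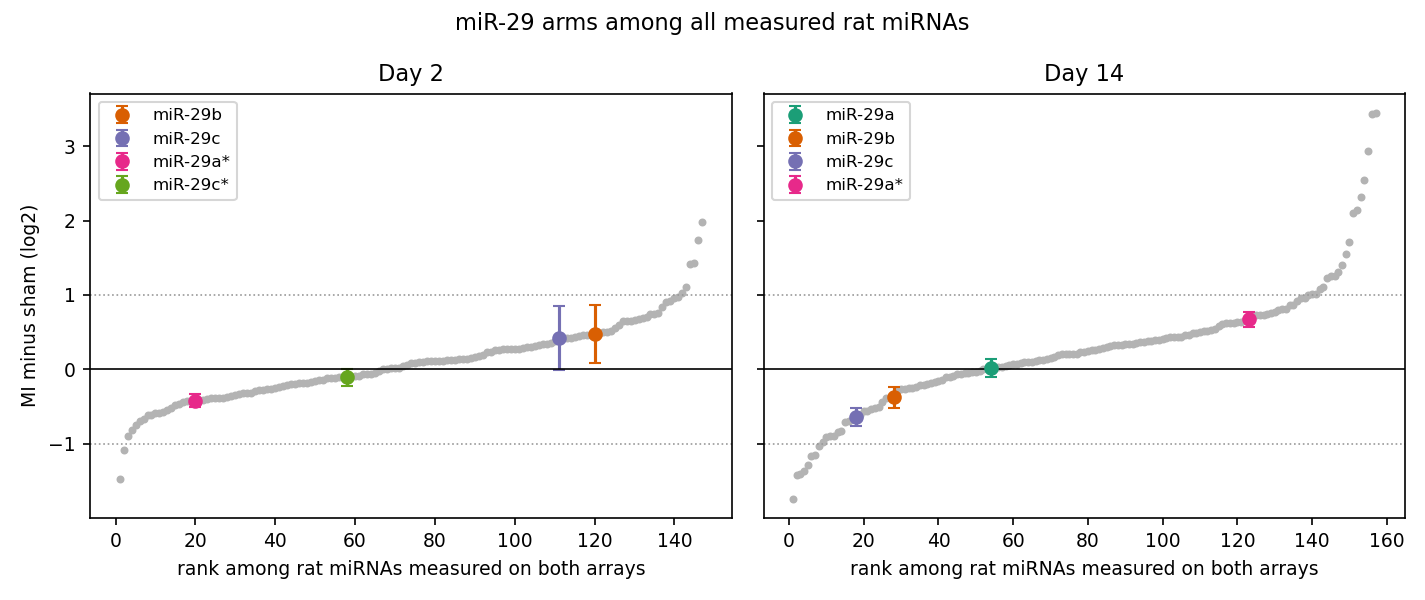
MI minus sham (log2) of all rat miRNAs measured on both arrays of a day, 147 at day 2 and 157 at day 14, ranked from lowest to highest, with the measured miR-29 arms marked, bars for ± SE over spots and dotted lines at 2-fold. The guide strands sit in the upper part of the order at day 2 and in the lower part at day 14, all inside the 2-fold lines.

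For miR-29a the distance from the median depended on the setting. The 4 settings that only shift whole arrays or leave them as they are cannot change this distance among themselves, and in them miR-29a was at -0.0057, essentially at the median, miR-29b at -0.33 and miR-29c at -0.74. Over all settings the distances ran from -0.37 to -0.0015 for miR-29a, from -0.80 to -0.33 for miR-29b and from -1.19 to -0.66 for miR-29c. Without the detection filter, where the median runs over all rat probes, miR-29a was at -0.0015. miR-29b and miR-29c lay below the median by more than miR-29a in each kind of setting. Against 0, by contrast, miR-29a was above in 12 settings and below in 7, from -0.31 to 0.46. In the authors' deposited table the differences at day 14 were -0.31 for miR-29a, -0.75 for miR-29b and -1.19 for miR-29c, and miR-29c alone passed 2-fold there. The values of the authors' deposited table have a wider log2 scale than the normalized intensities, and its normalization is not given in the labels or headers used here.

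**Figure D4:**
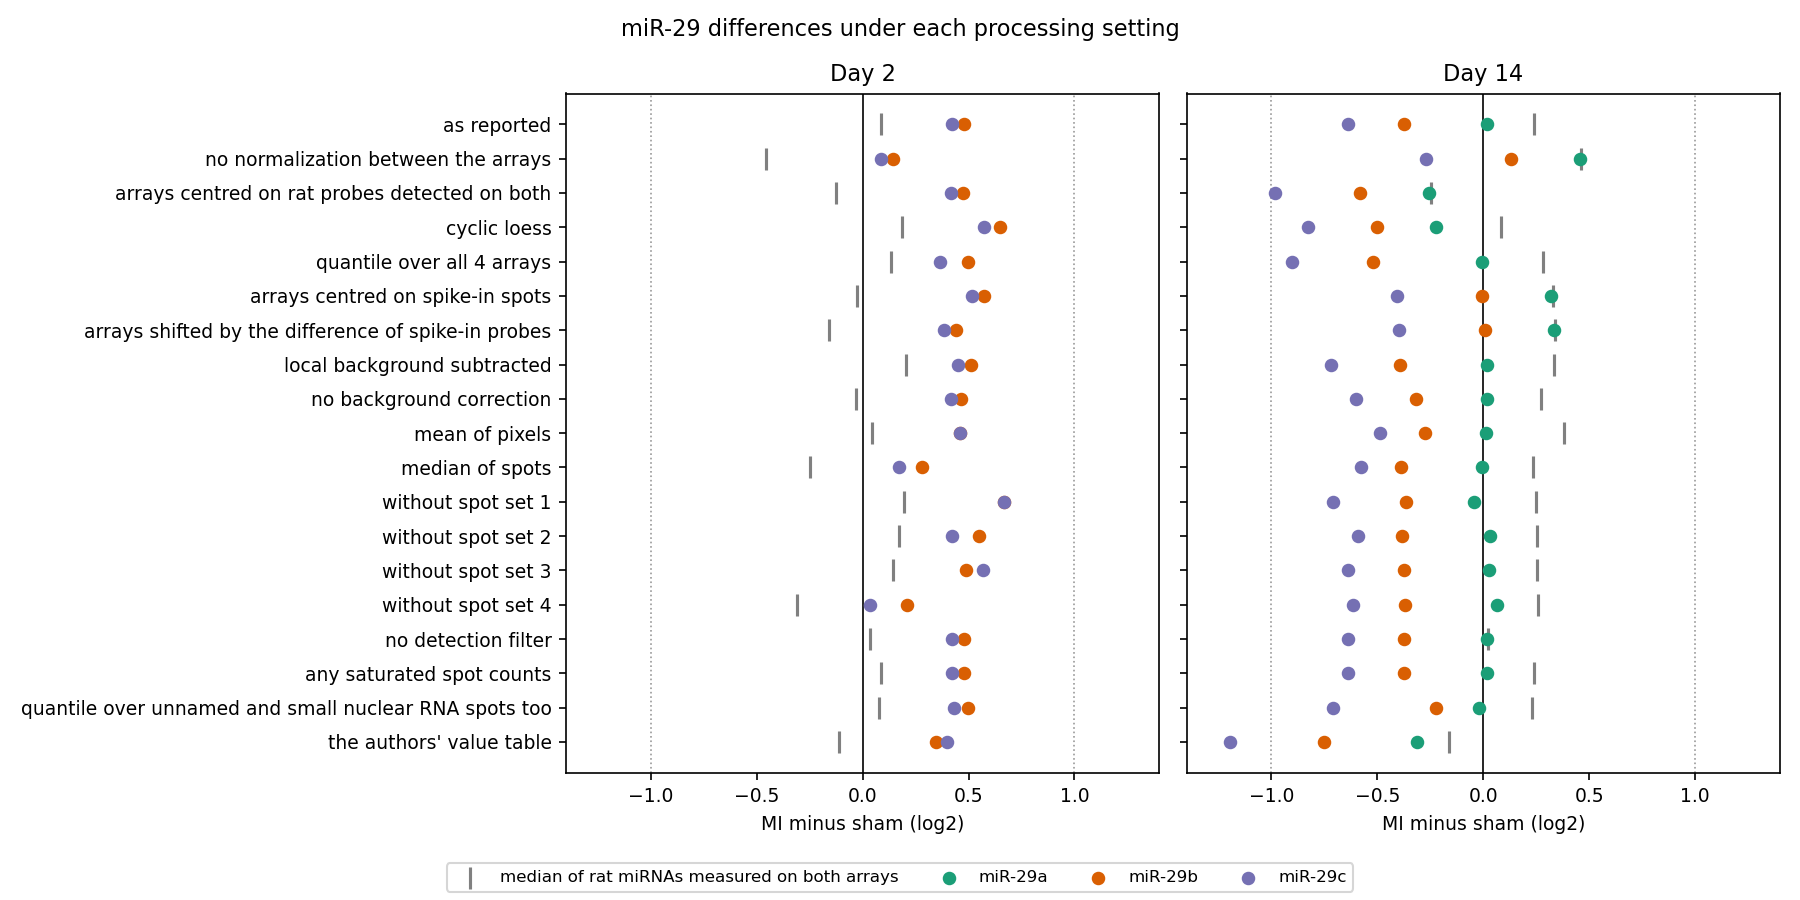
MI minus sham (log2) of the measured members under the reported processing and 18 alternatives, with grey ticks for the median of all rat miRNAs measured on both arrays and dotted lines at 2-fold. At day 14 the order miR-29c, miR-29b, miR-29a from left to right is the same in every setting, and miR-29a lies close to the grey tick in the settings that only shift whole arrays. Those settings cannot change the distances between members or to the tick.

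The members did not move by the same amount at day 14. The difference of miR-29a exceeded that of miR-29c by 0.66 (SE 0.17), that of miR-29a exceeded that of miR-29b by 0.39 (SE 0.18), and that of miR-29b exceeded that of miR-29c by 0.26 (SE 0.19). A shift of a whole array cannot change such a gap. The settings gave ranges of 0.50 to 0.90 for miR-29a over miR-29c, 0.20 to 0.52 for miR-29a over miR-29b and 0.19 to 0.49 for miR-29b over miR-29c. The last gap is little larger than its SE over spots. At day 2 the gap of miR-29b over miR-29c was 0.06 (SE 0.58), above 0 in 16 settings and below 0 in 3, so no order of these members can be read there. The pair miR-29a and miR-29c, which differ only by C10U, had the widest gap at day 14.

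The other arms of the same hairpins, named with a star on the arrays, lack the shared seed. Of the 4 with a rat probe, 2 were measured at day 2 and 1 at day 14, too few to set against a share. On either day 0 passed 2-fold, where 5.35% of all rat miRNAs with a fold did at day 2 and 15.2% at day 14. That count depends on the setting, since without normalization miR-29a* was at -1.01 and miR-29c* at -1.06 at day 2. miR-29a*, the arm opposite miR-29a, gave 9.78, 9.82, 9.80 and 9.56 on the MI array of day 2, against 10.13, 10.33, 10.07 and 10.12 on the sham array. No spot overlapped, and the difference was -0.42 (SE 0.08, 4 spots each). Relative to the median of the measured rat miRNAs it was -0.51, but -0.06 without set 4 and -0.08 with the median of spots. That median was itself -0.31 and -0.25 in those settings, so most miRNAs were then lower in MI by a similar amount. At day 14 miR-29a* gave 9.14, 9.32, 9.36 and 9.26 on the MI array, against 8.37, 8.80, 8.55 and 8.66 on the sham array. Again no spot overlapped, now with the MI array higher, by 0.67 (SE 0.10, 4 spots each), or 1.59-fold.

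miR-29a* was below 0 at day 2 and above 0 at day 14 in each of the 18 settings that measured it, from -1.42 to -0.30 at day 2 and from 0.13 to 0.94 at day 14. Relative to the median of the measured rat miRNAs it ran from -1.31 to -0.06 at day 2 and from 0.30 to 0.65 at day 14. Its probe number differs between the array generations, whereas the other miR-29 rat probes kept theirs, so the days read it with probes that may not be the same. Its guide partner miR-29a, from the same hairpin, differed by 0.02 at day 14. The array reads mature strands, and the hairpin transcript itself was not measured.

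miR-29c*, the arm opposite miR-29c, differed by -0.10 (SE 0.11) at day 2 and was not detected at day 14. The size of its day 2 difference depended on the scaling, with -1.06 without normalization, -0.73 with centred arrays, -0.63 and -0.77 with the spike-in spots and probes, and -0.92 in the authors' deposited table. It was above 0 in 0 of 19 settings. The net intensity ran the other way, at 212 ± 30.9 in MI and 167 ± 72.8 in sham (SD, 4 spots each). That is 1.27 times as high in MI, so the direction of miR-29c* is not settled. miR-29b-1* was not detected at day 2. At day 14 it was detected on the MI array only, with net intensities of 476, 252, 6 and 28 in the MI spots and 235.5, 52, 101.5 and 46 in the sham spots. Its fold is a bound of at least 1.12-fold higher in MI (log2 0.16, SE 0.58), and the spots disagreed in direction. miR-29b-2* was not detected on any array. A probe named only for human and mouse miR-29b-1* differed by 0.02 (SE 0.15) at day 2 and 0.03 (SE 0.10) at day 14.

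**Figure D5:**
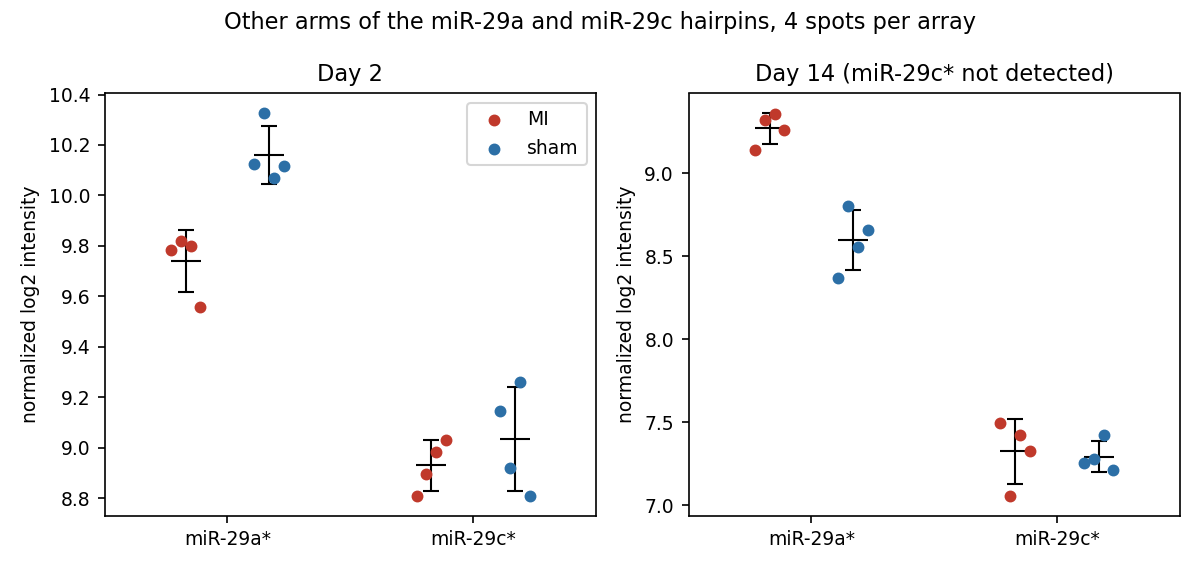
Normalized log2 intensity of the 4 spots of miR-29a* and miR-29c*, MI left of sham at day 2 and day 14, with bars for the mean ± SD over spots. miR-29c* was not detected at day 14. miR-29a* lies lower in MI than in sham at day 2 and higher in MI than in sham at day 14, without overlap on either day.

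Of 91 rat miRNAs measured on both arrays of both days, each member was compared with the 90 others, and those whose pair of differences lay closest to a member were found by Euclidean distance over the 2 days. For miR-29b the nearest was miR-29c (distance 0.27), followed by miR-499 (0.29), miR-22* (0.34), miR-320 (0.35) and miR-126* (0.37). For miR-29c the nearest was miR-499 (0.09), a miRNA encoded within a heart muscle myosin gene, with 0.51 at day 2 and -0.66 at day 14, before miR-29b (0.27), miR-743b (0.38), miR-126* (0.40) and miR-181b (0.54). Apart from the 0.54 of miR-181b, these distances are smaller than the member's own SE over spots at day 2, 0.39 for miR-29b and 0.43 for miR-29c. The SE of miR-499 was 0.97, and the day 2 value of miR-29c was 0.03 without set 4. The order of the neighbours is therefore a description only. miR-29a has no measured difference at day 2 and could not enter this ranking.

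Other miRNAs that are known to hold back fibrosis genes behaved in a mixed way at day 14. Of the 11 members of the miR-26, miR-30, miR-101 and miR-133 families, 11 were measured, 0 were at least 2-fold higher and 2 at least 2-fold lower in MI, against the background of 11.7% and 3.48%. The 2 were miR-133a (-1.42, SE 0.06) and miR-133b (-1.41, SE 0.04), which are made mainly by muscle. Without normalization 0 of the 11 were 2-fold lower and 1, miR-101b at 1.03, was 2-fold higher. The list's median was -0.18, between -1.42 and 0.73 for miR-101b, and the miR-29 median of -0.37 lay inside this range. miR-30e, at -0.84 (SE 0.08), was further below 0 than miR-29c. Without normalization this order was reversed, with miR-30e at -0.17 and miR-29c at -0.27. At day 2, 6 of the 11 had a fold, 4 were saturated on both arrays and miR-133a on the sham array. Of the 6, 0 passed 2-fold, against 5.35% of all rat miRNAs with a fold, and the median was 0.10.

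miRNAs known to favour fibrosis were much higher in MI at day 14, in contrast to the sizes seen for miR-29. Of 4 listed, 4 were at least 2-fold higher, against 11.7% of all rat miRNAs with a fold, with a median of 3.19. miR-21, which is known to promote fibroblast survival, was at 11.57 in MI and 8.13 in sham, a difference of 3.45 (SE 0.09). miR-199a-5p differed by 3.43 (SE 0.06), miR-214 by 2.94 (SE 0.06) and miR-34a, a target of p53, by 1.26 (SE 0.02). At day 2, 1 of the 4 was at least 2-fold higher, against 4.28% of all with a fold: miR-21 was saturated on the MI array, which makes its 1.44 (SE 0.16) a lower bound.

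Markers of cell types moved on the same arrays. At day 14, 4 of 5 heart muscle miRNAs were at least 2-fold lower in MI, against 3.48% of all rat miRNAs with a fold, with a list mean of 11.5 in MI and 12.8 in sham (log2). Without normalization 0 of the 5 were 2-fold lower, and their median was -0.84. Of 5 miRNAs known from fibroblasts and smooth muscle, 3 were at least 2-fold higher, against 11.7% of all with a fold, with a list mean of 12.3 in MI and 10.5 in sham. The 3 were miR-199a-5p, miR-199a-3p and miR-214, while miR-143 was at 0.81 and miR-145 at -0.15, both known from smooth muscle. Of these, miR-199a-5p and miR-214 were also in the list of miRNAs that favour fibrosis, so the 2 lists are not independent. Without normalization 4 of the 5 were 2-fold higher, with miR-143 at 1.24. Of 4 leukocyte miRNAs, 3 were at least 2-fold higher, against 11.7% of all rat miRNAs with a fold. The other, miR-150, was at least 2-fold lower, against 3.48% of all. Of the 3, miR-142-5p at 1.48 was a lower bound, since it was not detected on the sham array. The list mean was 10.8 in MI and 10.1 in sham. The endothelial list had a median of -0.34 and the erythroid list of 0.11. In each, 0 of 2 passed 2-fold, against 15.2% of all rat miRNAs with a fold. The part of these shifts in the miR-29 differences was not tested. In whole heart RNA, fewer cells of a type and less RNA per cell cannot be told apart. The miR-29c difference of -0.64 was smaller in size than the heart muscle median of -1.37.

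At day 2 the pattern of the markers was another. Of 4 leukocyte miRNAs, 2 were at least 2-fold higher in MI, against 4.28% of all rat miRNAs with a fold. The list median was 1.35, with a mean of 13.2 in MI and 11.8 in sham. The 2 were miR-223 at 1.99 (SE 0.12) and miR-142-3p at 1.74 (SE 0.88). miR-142-5p was at 0.83 (SE 0.09) and miR-150 at 0.97 (SE 0.77). Of 5 heart muscle miRNAs, 2 had a fold, 2 were saturated on both arrays and miR-133a on the sham array. The 2 with a fold were miR-133b at 0.33 (SE 0.60) and miR-499 at 0.51 (SE 0.97), differences within their errors over spots. For fibroblasts and smooth muscle, 4 of 5 listed miRNAs had a fold and the median was -0.02. Of the 4, 0 passed 2-fold, against 5.35% of all rat miRNAs with a fold. The part of these markers in the miR-29 differences of day 2 was not tested either.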

How the data were processed

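The authors deposited scanner files that hold, for every spot, the 532 nm intensity, the local background and the percent of saturated pixels, per the file headers. Images at 5 µm were read with Mapix 4.5.0. The day 2 arrays are version 11.0 (miRBase 12.0 names) and the day 14 arrays generation 6 (miRBase 16.0 names), per the file headers. RNA was labelled with Hy3 for miRCURY LNA arrays, per the labels. The authors also deposited a table of log2 values per probe, with no normalization stated in the sources used here, which served as an alternative. Groups came from the sample titles, since all samples carry 1 treatment text, that of sham at day 2.

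Median intensities were corrected with normexp (offset 50, limma 3.58.1, R 4.3.3). Quantile normalization joined the arrays of each day over spots with miRNA names, and each probe was given the mean log2 value of its 4 spots. The SE is that of the difference of means over spots. A call needed 2-fold, and a probe detected on 1 array only gave a bound. A probe saturated on 1 array only gave a bound if that array was the brighter, and otherwise no fold. The steps were tested on simulated arrays, and 18 alternatives were run. Both simulated arrays had the background of the MI array and the same spread between spots, with no saturated spots and no displaced spot set. The simulation therefore does not cover the conditions of the sham array of day 2. The named miRNAs were the members, the other arms of their hairpins, the context and marker lists, and the 5 nearest miRNAs to each member measured on both days. The members and lists were chosen with earlier results of these data known.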

Additional observations from a re-analysis of the deposited data

Results flagged for a closer look

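In 3 miR-29 strands the difference of MI from sham had opposite signs on the 2 days, as it did in 38 of the 91 rat miRNAs measured on both days (41.8%), and in none was the difference between the days tested, since each group has 1 array and the array generation and RNA amount changed with the day. miR-29b was 0.48 at day 2 and -0.37 at day 14. Its sign at day 14 turned on the normalization, above 0 in 2 of 19 settings and below 0 in 17. Without normalization miR-29b was 0.14 at day 2 and 0.13 at day 14. With the shift by spike-in probes it was 0.44 and 0.007. miR-29c was 0.42 at day 2 and -0.64 at day 14. miR-29a* ran the other way, with -0.42 at day 2 and 0.67 at day 14, read by probes with different numbers. Without spot set 4 the day 2 values were 0.21 for miR-29b, 0.03 for miR-29c and -0.37 for miR-29a*. The median of the measured rat miRNAs was -0.31 in that setting.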

How the results depend on the processing

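No guide strand difference of day 2 moved beyond its SD between spots, that of the 2 arrays combined, under the 18 alternatives. This measure could hardly be exceeded, since the SD on the sham array alone was 0.74 for miR-29b and 0.80 for miR-29c. The differences ran from 0.14 to 0.67 for miR-29b and from 0.03 to 0.67 for miR-29c. The list below holds the guide strand values of day 14 that moved beyond their SD between spots. It also holds the family medians that moved by more than 0.02, the SD of that median over the spot sets. The cause was not tested for any. Without normalization miR-29a was 0.46, miR-29b 0.13, miR-29c -0.27 and the family median 0.13. Centring on detected rat probes gave -0.25 for miR-29a, -0.98 for miR-29c and a median of -0.58. Cyclic loess gave -0.22 for miR-29a and a median of -0.50. Quantile normalization over all 4 arrays gave -0.90 for miR-29c and a median of -0.52. Centring on spike-in spots gave 0.32 for miR-29a, -0.005 for miR-29b and a median of -0.005, and shifting by spike-in probes gave 0.33, 0.007 and 0.007. The median was -0.32 without background correction, -0.28 with the mean of pixels and -0.22 with unnamed and small nuclear RNA spots in the normalization, an alternative chosen after seeing the data. The authors' deposited table gave -0.31 for miR-29a, -0.75 for miR-29b, -1.19 for miR-29c, a median of -0.75 and 1 member past 2-fold. The star arms moved more: miR-29a* ran from -1.42 to -0.30 at day 2 and at day 14 was 0.21 with centring and 0.13 in the authors' deposited table, and miR-29c* reached -1.06 at day 2 without normalization. The median of all measured rat miRNAs was 0.24 as reported, 0.46 without normalization and -0.25 with centring. No paired analysis was possible because each group has 1 array. Saturation limits miR-29a at day 2, and local background limits the star arms.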
